A study of Mus musculus with 3 samples.

Results

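Cell cycle genes were described here by the phase in which their products are best known to act: 10 G1 genes, 13 S genes and 15 G2/M genes, 38 of the 55536 genes in the deposited tables. The members were a given list of symbols, each matched to 1 gene identifier through the transcript tables. The rule that lists them uses no measured value, but the members were chosen with earlier results of these data known. The libraries came from the cytosolic fraction of primary macrophages grown from bone marrow of C57BL/6J mice. All cells had received lipid A, the moiety of bacterial lipopolysaccharide sensed by Tlr4, at 100 ng/ml both times: a first exposure of 12 hours, then a washout lasting 12 hours, then a second exposure of 60 minutes. Total RNA depleted of ribosomal RNA was sequenced in 3 libraries of this 1 group, each from 1 µg of RNA, and the 3 share a donor entry in the labels. No untreated or once-treated cells were analysed here, so the values are levels and not responses to lipid A.

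In G1, D-type cyclins pair with Cdk4 or Cdk6 and phosphorylate the retinoblastoma protein, which frees E2F factors, and CDK inhibitors such as p21 and p27 hold these kinases back. E2F factors turn on the genes of DNA synthesis, and a later wave of transcription, held down in resting cells by the DREAM complex, supplies the cyclins, kinases and motor proteins of mitosis. Macrophages grown from marrow divide in response to the growth factor Csf1, and activation through Tlr4 is known to halt that division.

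Expected counts on genes totalled between 46546422 and 53364168 per library, and the 38 genes together held 0.157%, 0.190% and 0.141% of them in replicates 1, 2 and 3. A limit of 3 counts corresponded to between 0.0562 and 0.0645 CPM (counts scaled to a fixed library total), which covers counting error only, and every member had counts in every library. All 9 macrophage markers stood above 1 TPM, with Lyz2 at 3525 ± 672 TPM (SD, n = 3), and 7 of 7 myeloid progenitor markers stood below it, with Kit the highest at 0.167 ± 0.10. Of 6 neutrophil markers 2 stood above 1 TPM, S100a9 at 4.66 ± 0.50 and S100a8 at 3.14 ± 0.71, while 3 stood below and Ly6g was listed at 0. Lck of lymphocytes stood at 0.0833 ± 0.064 TPM and Klf1 of erythroid cells at 0.0167 ± 0.0058, and Hba-a1, Hbb-bt and Alas2 were listed at 0. Nothing in the labels says whether the cultures came from separate animals, so p-values measure the spread between these samples, which may be technical.

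RNA of the G1 genes was the most abundant, that of the S genes was intermediate and that of the G2/M genes was low, in each of the 3 libraries. Levels are in TPM (transcript abundance per unit of transcript length, scaled to a fixed total per library, so that genes can be compared), and each gene was tested against 1 TPM with limma on log2(TPM + 1). At a Benjamini-Hochberg adjusted p under 0.05, 22 of the 38 genes stood above 1 TPM, 7 below, and 9 could not be placed on either side. Of all 20685 genes tested, 44.5% stood above and 50.4% below, and of the 14374 protein-coding genes among them 8764 stood above. By phase, 10 of 10 G1 genes stood above 1 TPM. Among S genes 9 of 13 stood above, 1 below and 3 were not placed, and among G2/M genes 3 of 15 stood above, 6 below and 6 were not placed. The share above was thus higher than among coding genes in G1, near it in S and lower in G2/M, which was described and not tested. The phases hold different genes, each with its own level. In the bulk RNA of a culture, such differences between genes, fewer cells in a phase and less RNA per cell cannot be told apart.

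The median G1 gene stood at 13.4, 10.4 and 9.71 TPM in replicates 1, 2 and 3. For the S genes the medians were 3.25, 2.58 and 3.69 TPM, close to the median of coding genes, which was 3.31, 3.00 and 2.93 TPM. G2/M medians were 0.80, 0.97 and 0.63 TPM, below the median of coding genes in each library. The median of all genes tested, noncoding ones included, was 0.69, 0.64 and 0.66 TPM. The 3 phases did not overlap in their library medians. On log2(TPM + 1), the G1 median exceeded the S median by 1.54 ± 0.30 (SD, n = 3 libraries) and the G2/M median by 2.74 ± 0.24, and the S median exceeded the G2/M median by 1.21 ± 0.33. Each difference had the same sign in 3 of 3 libraries, and an exact two-sided sign-flip test over 3 libraries cannot go below p = 0.25. As ratios of median TPM, G1 to G2/M was 14.3 ± 3.2 and S to G2/M was 4.19 ± 1.60. The place of the level matters for the G2/M genes. Protein-coding genes held between 27.5% and 34.5% of TPM, and with TPM rescaled to coding genes alone 10 of the 15 G2/M genes stood above 1 TPM and 2 below, against 12 of 13 S genes above and none below, and 10033 of 14374 coding genes above and 3662 below. In a second set of transcript tables made directly from the reads, where the members' TPM was lower, 3 G2/M genes stood above and 12 below, and of the S genes 7 stood above and 4 below, while of 28497 genes tested there 7771 stood above and 19242 below.

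**Figure D1:**
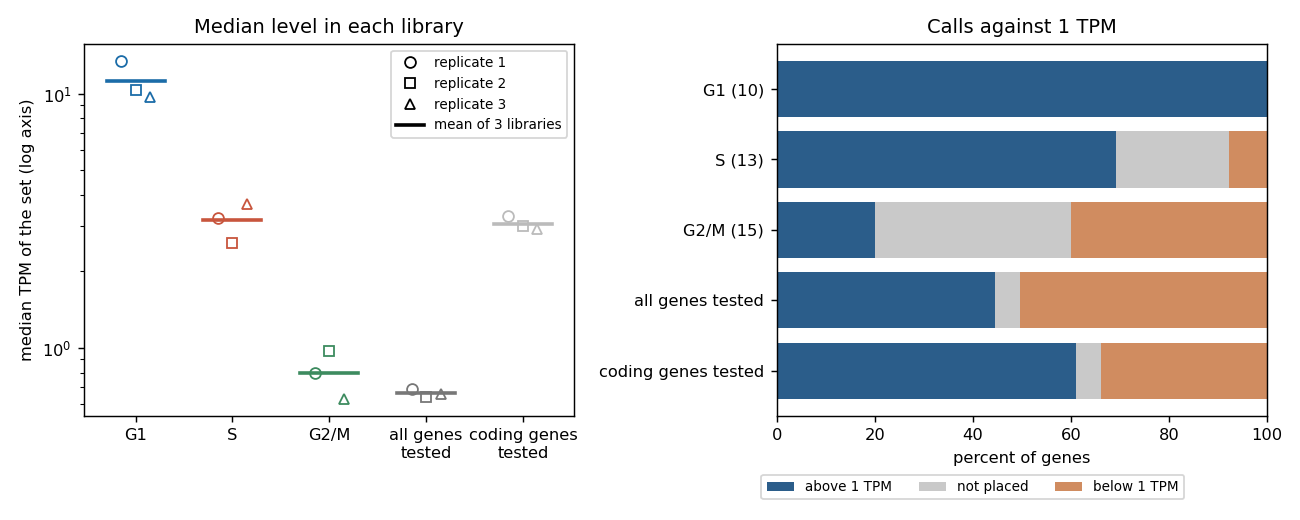
The left panel gives the median TPM of each gene set in each library on a log axis, with a bar at the mean of the 3 libraries; G1 medians lie between 9.71 and 13.4 TPM and G2/M medians between 0.63 and 0.97. The right panel gives the percent of genes placed above 1 TPM, below it or on neither side, with 10 of 10 G1 genes and 3 of 15 G2/M genes above.

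**Figure D2:**
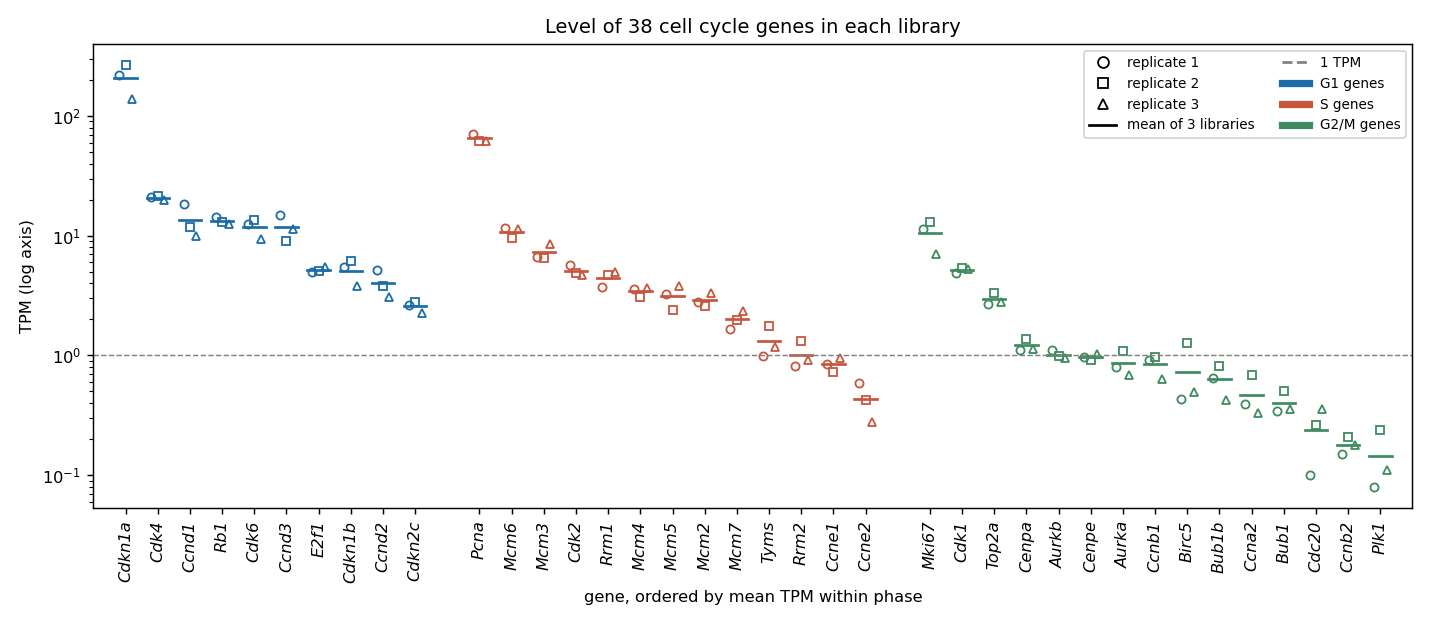
TPM of each of the 38 genes in replicates 1 (circles), 2 (squares) and 3 (triangles) on a log axis, ordered by mean within phase, with a bar at the mean of 3 libraries and a dashed line at 1 TPM. Cdkn1a leads the G1 genes, Pcna the S genes and Mki67 the G2/M genes.

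Among the G1 genes, the CDK inhibitors differed most in level. Cdkn1a (ENSMUSG00000023067.14, chr17:29090976-29100727, plus strand of mm10), which encodes p21, stood at 219, 266 and 138 TPM, with a mean of 208 ± 65 (SD, n = 3; adjusted p = 5.2e-08 against 1 TPM). It was the highest of the 38 genes in every library and higher than 98.7% of coding genes, and it alone made up 47.9%, 54.8% and 39.8% of the members' summed TPM in replicates 1, 2 and 3. Replicate 2 was highest and replicate 3 lowest, a range of 1.94-fold. Cdkn1b, which encodes p27, stood at 5.43, 6.12 and 3.80 TPM, so that Cdkn1a exceeded it 40.0 ± 3.7-fold within libraries. Cdkn2c, which encodes the Cdk4 and Cdk6 inhibitor p18, was the lowest G1 gene at 2.66, 2.82 and 2.24 TPM. All 3 inhibitors were highest in replicate 2 and lowest in replicate 3. The pairs of genes set against each other by ratio here and below were chosen after their values were seen.

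The G1 kinases, their cyclins and their target were all well above 1 TPM. Cdk4 stood at 20.9, 21.4 and 19.9 TPM and Cdk6 at 12.6, 13.4 and 9.42 TPM, so the Cdk4 level was 1.79 ± 0.28 times that of Cdk6. Their ranges did not overlap. Of the cyclins that activate them, Ccnd1 stood at 18.5, 11.7 and 10.01 TPM, Ccnd3 at 14.9, 9.00 and 11.4 TPM, and Ccnd2 at 5.13, 3.79 and 3.05 TPM. All 3 D-type cyclins were highest in replicate 1, as were 60.4% of genes with a summed count of at least 30. In the second tables Ccnd2 was highest in replicate 2. Ccnd1 exceeded Ccnd2 3.32 ± 0.26-fold in 3 of 3 libraries but exceeded Ccnd3 in only 2 of 3, and the ranges of Ccnd1 and Ccnd3 overlapped. Rb1, the pocket protein that these kinases inactivate, stood at 14.2, 13.1 and 12.6 TPM. E2f1, an activating E2F factor, stood at 5.0, 5.09 and 5.43 TPM. In the order of mean levels from Cdkn1a down to Cdkn2c, 5 of the 9 neighbouring pairs overlapped in range. With TPM scaled by TMM factors (edgeR), all 10 still stood above 1 TPM, and 9 did in the second tables, where Cdkn2c was not placed (limma adjusted p = 0.35). At a level of 5 TPM in place of 1 TPM, 6 stood above. Of all genes tested, 9160 of 20685 stood above 1 TPM with TMM scaling and 7771 of 28497 in the second tables. Above 5 TPM stood 5491 of 20685. Exons of Ccnd1, Ccnd3, Cdk4 and Rb1 overlap coding genes on the opposite strand, the most abundant being Tspan31 beside Cdk4 at 33.6 TPM. The strand setting of the counting is not given in the sources used here, so reads of such pairs cannot be told apart.

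The S genes were led by the sliding clamp of DNA polymerase. Pcna (chr2:132249162-132253314, minus strand) stood at 70.7, 62.0 and 62.2 TPM, a mean of 65.0 ± 5.0 that was higher than 94.9% of coding genes. It exceeded Mcm6, the next S gene, 6.03 ± 0.52-fold within libraries. The 6 subunits of the MCM2-7 helicase, which load onto origins as one ring, all stood above 1 TPM, at unequal levels. In the second tables Mcm2 and Mcm7 were not placed (limma adjusted p = 0.069 and 0.78). Mcm6 stood at 11.5, 9.56 and 11.4 TPM and Mcm3 at 6.68, 6.49 and 8.57 TPM. Means were 3.45 ± 0.31 TPM for Mcm4, 3.15 ± 0.69 for Mcm5, 2.90 ± 0.39 for Mcm2 and 2.00 ± 0.34 for Mcm7. Mcm6 exceeded Mcm7 5.53 ± 1.17-fold in 3 of 3 libraries, while the ranges of Mcm4 and Mcm5 overlapped, as did those of Mcm5 and Mcm2. Exons of Mcm7 overlap those of Cops6 and Ap4m1 on the opposite strand.

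Genes of nucleotide synthesis and of the G1 to S switch ranged from levels within those of the helicase genes to levels below 1 TPM. Rrm1, the large subunit of ribonucleotide reductase, stood at 3.75, 4.67 and 4.93 TPM. Rrm2, the small subunit made in S phase, stood at 0.81, 1.32 and 0.91 TPM and was not placed against 1 TPM (adjusted p = 0.99). The ratio of Rrm1 to Rrm2 was 4.53 ± 0.94. Tyms, which makes thymidylate, stood at 0.98, 1.76 and 1.18 TPM and was not placed either (adjusted p = 0.13). Cdk2, the kinase that cyclin E activates, stood at 5.74, 4.87 and 4.73 TPM. Its cyclins were far lower: Ccne1 at 0.85, 0.73 and 0.96 TPM was not placed (adjusted p = 0.17), and Ccne2 at 0.59, 0.42 and 0.28 TPM was the one S gene below 1 TPM (adjusted p = 5.2e-04). The range of Ccne1 lay above that of Ccne2, whose exons overlap Ints8 on the opposite strand. In the order of S genes, 6 of 12 neighbouring pairs overlapped in range.

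The G2/M genes fell into 3 that stood above 1 TPM and 12 near or below it. Mki67 (chr7:135689784-135716361, minus strand), the gene of the Ki-67 protein that coats mitotic chromosomes, stood at 11.4, 13.1 and 7.09 TPM, a mean of 10.5 ± 3.1 from 8533 counts on average. Cdk1 (chr10:69335146-69352938, minus strand), the mitotic kinase, stood at 4.84, 5.33 and 5.27 TPM. Top2a, the topoisomerase that untangles sister chromatids, stood at 2.70, 3.33 and 2.79 TPM. All 3 were highest in replicate 2, and Mki67 exceeded Top2a 3.56 ± 0.90-fold. The cyclins that activate Cdk1 were lower than the kinase in every library. Ccnb1 stood at 0.92, 0.97 and 0.63 TPM, Ccna2 at 0.39, 0.69 and 0.33 TPM, and Ccnb2 at 0.15, 0.21 and 0.18 TPM. Cdk1 exceeded Ccnb1 6.37 ± 1.73-fold, Ccna2 12.0 ± 4.1-fold and Ccnb2 29.0 ± 3.5-fold, although part of the Cdk1 level lies in a short noncoding transcript described below. Exons of Ccna2 overlap those of Exosc9 on the opposite strand, at 10.07 TPM.

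Mitotic kinases and checkpoint genes were low. Plk1, which drives spindle assembly and mitotic exit, was the lowest of the 38 at 0.08, 0.24 and 0.11 TPM from 11, 44 and 18 counts (adjusted p = 2.5e-06 below 1 TPM). Aurka, the spindle pole kinase, stood at 0.80, 1.09 and 0.68 TPM, and Aurkb, the kinase of the chromosomal passenger complex, at 1.10, 0.99 and 0.96 TPM. Birc5, which encodes survivin of the same complex, stood at 0.43, 1.28 and 0.49 TPM. Replicate 2 stood apart for Birc5, and without it Birc5 lay below 1 TPM (limma adjusted p = 0.0075, against 0.17 with all 3 libraries). Of the spindle checkpoint genes, Bub1b stood at 0.65, 0.82 and 0.42 TPM and Bub1 at 0.34, 0.50 and 0.36 TPM. Cdc20, the activator of the anaphase promoting complex, stood at 0.10, 0.26 and 0.36 TPM from 12, 35 and 18 counts. Its exons overlap those of Elovl1 on the opposite strand, at 34.5 TPM. The centromere genes lay at the level itself: Cenpa, the centromeric histone, at 1.12, 1.37 and 1.14 TPM and Cenpe, a kinesin of the kinetochore, at 0.97, 0.91 and 1.02 TPM. The calls below 1 TPM for Bub1b and Ccna2 were lost when single libraries were left out. Without replicate 1 their limma adjusted p-values were 0.10 and 0.055, and without replicate 3 that of Bub1b was 0.078. In the order of G2/M genes, 10 of 14 neighbouring pairs overlapped in range, and these were all the pairs from Aurkb down.

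Promoter sequence is a property that the list did not use, and the words found in it are described by phase, with no test of a difference. RefSeq promoter windows on GRCm38.p6, from 250 bases before to 50 bases after a start, were matched by symbol for 31 of the 38 genes; Ccnd1, Ccnd2, Rb1, Ccne2, Mcm4, Ccna2 and Aurkb had no match. Both strands were searched for TTTGAA, the cell cycle homology region (CHR) to which MuvB complexes such as DREAM are known to bind, for CCAAT, the box bound by NF-Y, and for 4 words taken as E2F cores: TTCCCGC, the related TTGGCGC, its variant TTCGCGC, and lastly TTGCCGC. The words can overlap, as the E2F cores do in Mcm6 and as an E2F core and CCAAT do in Ccnb1. TTTGAA was found in 9 of 13 G2/M genes, 1 of 11 S genes and 0 of 7 G1 genes, against 20.2% of the 27025 genes in the RefSeq table. CCAAT was found in 12 of 13 G2/M genes, 9 of 11 S genes and 3 of 7 G1 genes, against 41.1%. An E2F core was found in 3 of 13 G2/M genes, 7 of 11 S genes and 1 of 7 G1 genes, against 10.9%. Both TTTGAA and CCAAT were in the windows of 9 of 13 G2/M genes, against 8.97% of all genes. These matches are descriptions of letters in a window and are not shown to be sites in these cells.

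The sequences below are examples of how these words lie, chosen for the words they hold; E2F cores and CCAAT occur in both the G2/M and the S stretches. For G2/M, the 3 genes above 1 TPM and Cdc20 are shown. Each is 110 bases upstream of the start, 5′ to 3′ on the gene's strand, free of annotated exons, with the words named above in capitals. Cdk1 (chr10:69352939-69353048) holds TTTGAA between CCAAT boxes, Cdc20 (chr4:118437353-118437462) holds CCAAT and then TTTGAA, and Top2a (chr11:99024190-99024299) holds TTTGAA on the reverse strand. Mki67 (chr7:135716380-135716489) holds TTTGAA and an E2F core.
Cdk1: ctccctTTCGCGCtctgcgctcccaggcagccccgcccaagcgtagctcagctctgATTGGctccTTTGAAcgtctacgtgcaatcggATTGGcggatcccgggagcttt
Cdc20: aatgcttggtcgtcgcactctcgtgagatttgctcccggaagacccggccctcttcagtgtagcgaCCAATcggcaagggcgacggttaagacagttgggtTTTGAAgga
Top2a: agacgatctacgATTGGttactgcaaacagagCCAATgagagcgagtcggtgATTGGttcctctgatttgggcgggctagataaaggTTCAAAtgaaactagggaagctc
Mki67: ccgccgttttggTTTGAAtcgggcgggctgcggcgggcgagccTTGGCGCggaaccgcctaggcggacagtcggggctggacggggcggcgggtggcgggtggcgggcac

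For S, the helicase gene Mcm6 (chr1:128359706-128359815), Rrm1 (chr7:102441585-102441694) and Cdk2 (chr10:128705052-128705161) are shown, since they stood above 1 TPM and hold E2F cores and CCAAT in the stretch.
Mcm6: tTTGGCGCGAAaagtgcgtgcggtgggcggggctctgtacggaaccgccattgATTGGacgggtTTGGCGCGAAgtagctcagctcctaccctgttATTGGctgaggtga
Rrm1: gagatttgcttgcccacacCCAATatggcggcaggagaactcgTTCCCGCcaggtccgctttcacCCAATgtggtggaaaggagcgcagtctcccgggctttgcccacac
Cdk2: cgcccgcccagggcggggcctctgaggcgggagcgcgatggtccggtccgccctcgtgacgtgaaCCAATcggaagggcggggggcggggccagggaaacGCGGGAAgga

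For G1, Cdkn1a (chr17:29090866-29090975) is shown as the most abundant of the 38, at the upstream of its RefSeq starts; the transcript Cdkn1a-201 described below begins further downstream. None of the words above is in its stretch, and the capitals mark a pair of CATG cores at the spacing of a p53 response element, searched for after the sequence was seen. That pattern, CATGNNNNNNCATG, was in the window of 1 of the 31 matched members and of 0.833% of all genes.
Cdkn1a: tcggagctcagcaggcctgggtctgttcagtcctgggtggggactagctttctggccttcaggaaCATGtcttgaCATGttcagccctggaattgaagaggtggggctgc

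Most members varied between the 3 libraries by more than counting error. A chi-square test of the rounded counts against library totals called 31 of 38 genes at a Benjamini-Hochberg adjusted p under 0.05, against 69.3% of 13075 genes with a summed count of at least 30. The calls covered 10 of 10 G1 genes, 11 of 13 S genes and 10 of 15 G2/M genes. Mki67 and Cdkn1a varied most relative to their counting error. For Mki67 the coefficient of variation over libraries was 29.4%, against 1.08% from counting, and for Cdkn1a it was 31.4% against 0.583%. In TPM, Cdk4 varied by 3.72%, E2f1 by 4.38% and Cdk1 by 5.19%, and their counts were still called (adjusted p = 2.6e-14, 1.3e-08 and 0.034). For Cdk1 the call was lost with TMM library sizes (adjusted p = 0.16). The calls depended on single libraries. Without replicate 2, 4 G2/M genes were called and without replicate 1, 6, and without replicate 3, 3 S genes were called, where all genes tested gave 51.3%, 51.6% and 53.9% in the same order. For low genes the spread is hard to separate from counting: Ccnb2 varied by 16.7% where counting gives 22.2%.

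The library with the highest level was counted by phase, with no test of a difference. Of the G2/M genes, 12 of 15 were highest in replicate 2, against 23.6% of 12980 genes with the same minimum count, and in this library their log2 TPM lay a median of 0.30 above each gene's mean while that of all genes lay at -0.04. Of these 12, Ccnb1, Ccnb2, Bub1b and Cenpa did not vary beyond counting error (chi-square adjusted p = 0.2, 0.34, 0.33 and 0.062). The library that leads is uncertain for them, while the rest of the 12 were called. Top2a stood at 19.04 CPM in replicate 2 and 18.97 in replicate 3. Of the S genes, 7 of 13 were highest in replicate 3, against 16.0%, with a median deviation of 0.10 against -0.09 for all genes. G1 genes were highest in replicate 1 for 4, in replicate 2 for 5 and in replicate 3 for 1, against 60.4% of all genes in replicate 1. Their median deviation in replicate 3 was -0.25. Scaling shifts all genes together: their median deviation in replicate 1 was 0.12 on deposited TPM, 0.17 with TMM and -0.07 with TPM rescaled over coding genes. The G2/M count was 12 with TMM, 11 after rescaling and 13 in the second tables, against 19.5%, 37.8% and 60.1% of all genes highest in replicate 2. The S count was 6, 10 and 6, against 12.2%, 42.3% and 22.1% of all genes highest in replicate 3, and 7 S genes were highest in replicate 2 in the second tables. The G2/M count lay near its limit of 15, so its small change between scalings does not show a steady excess over all genes. In the second set of transcript tables the lead of replicate 2 was not particular to G2/M genes. There, 28 of the 38 members were highest in replicate 2, and 8 of the 10 G1 genes were. These counts were chosen after the values were seen. Replicates are not conditions, and the labels give no treatment or batch that sets them apart.

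Other RNAs also differed between the libraries. The 4 stromal markers were all highest in replicate 2, their sum standing at 0.06, 4.89 and 2.23 TPM, with Col1a1 listed at 0 in replicate 1 and at 2.53 and 1.28 TPM in replicates 2 and 3. The 3 nuclear RNAs were all highest in replicate 3, with Rn7sk at 27778, 26912 and 68232 TPM and Malat1 at 112, 90.6 and 452 TPM. The 7 progenitor markers were low in every library, with a sum of 0.45, 0.56 and 0.30 TPM. Of these, 2 were highest in replicate 1, 4 in replicate 2 and 1 in replicate 3. Kit, the most abundant, stood at 0.24, 0.21 and 0.05 TPM. Elane had 0, 1 and 0 counts and Mpo 0, 3 and 5, so the library that leads is uncertain for such genes. The part of these RNAs in the differences between libraries was not tested.

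**Figure D3:**
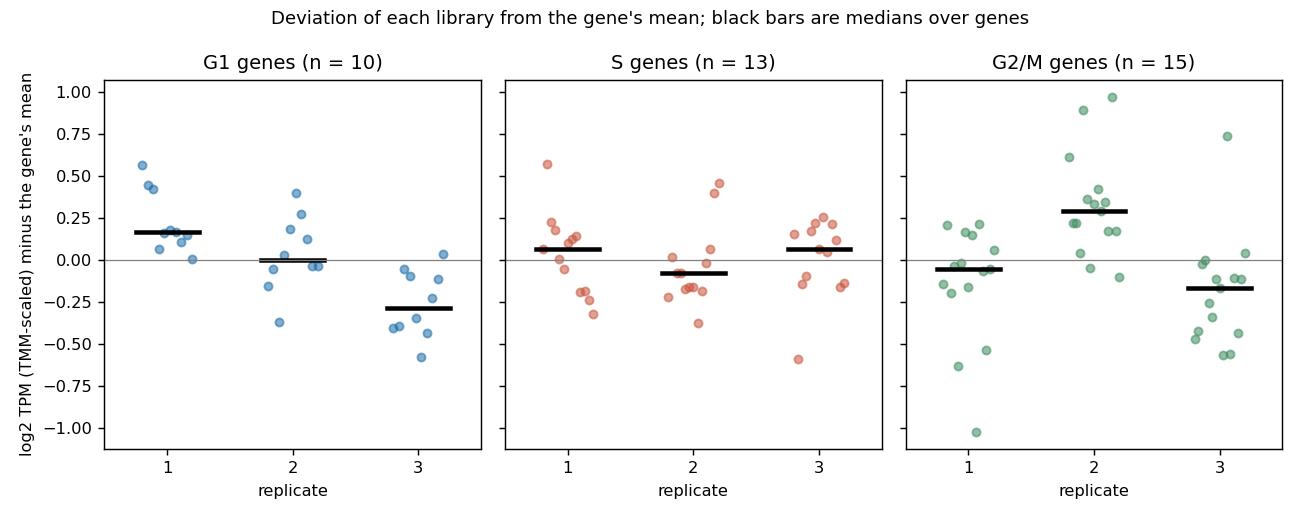
Each point is 1 gene's log2 TPM after TMM scaling in a library minus its mean over the 3 libraries, in a panel per phase, with black bars at the medians. In the G2/M panel the median is 0.29 in replicate 2, and in the G1 panel it is -0.29 in replicate 3.

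Transcript tables showed which transcripts carried each level. The median member had 99.8% ± 0.2 (SD, n = 3) of its transcript TPM in transcripts annotated as protein coding. For 28 of 38 genes the mean share was over 90%, in 10 of 10 G1 genes, 8 of 13 S genes and 10 of 15 G2/M genes. For Cdkn1a a single transcript of 1913 bases, Cdkn1a-201, held 98.8% ± 0.5. The most abundant transcript was coding in 36 of 38 genes and was the same transcript in the second tables in 38 of 38. The exceptions were Tyms and Cenpa, whose leading transcripts are annotated as targets of nonsense-mediated decay. Tyms-205, 618 bases long, held 66.5% ± 17.3 of the Tyms level and coding transcripts 21.1% ± 14.2. Cenpa-202 held 60.1% ± 5.5 of the Cenpa level and coding transcripts 36.8% ± 4.5, so the coding part of Cenpa stood at 0.44, 0.54 and 0.36 TPM.

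Retained introns and other noncoding transcripts held part of several S and G2/M genes. The coding share was 66.0% ± 9.0 for Cdk1, where a transcript of 475 bases with a retained intron held 32.6% ± 6.8. Its coding transcript Cdk1-202 alone stood at 3.32, 2.93 and 3.35 TPM, still above Ccnb1 in each library. Coding shares were 59.8% ± 5.6 for Mcm3 and 66.2% ± 5.7 for Top2a. The Mcm3 share depended on the tables and was 82.3% ± 4.3 in the second set. For Cdc20 the coding share was 100%, 88.5% and 19.4%, so that its higher TPM in replicate 3 lay mostly in Cdc20-202, a retained intron transcript at 0.22 TPM there and listed at 0 in the others. The coding Cdc20-201 was highest in replicate 2, at 0.10, 0.23 and 0.07 TPM. Short transcripts at such counts give uncertain shares.

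**Figure D4:**
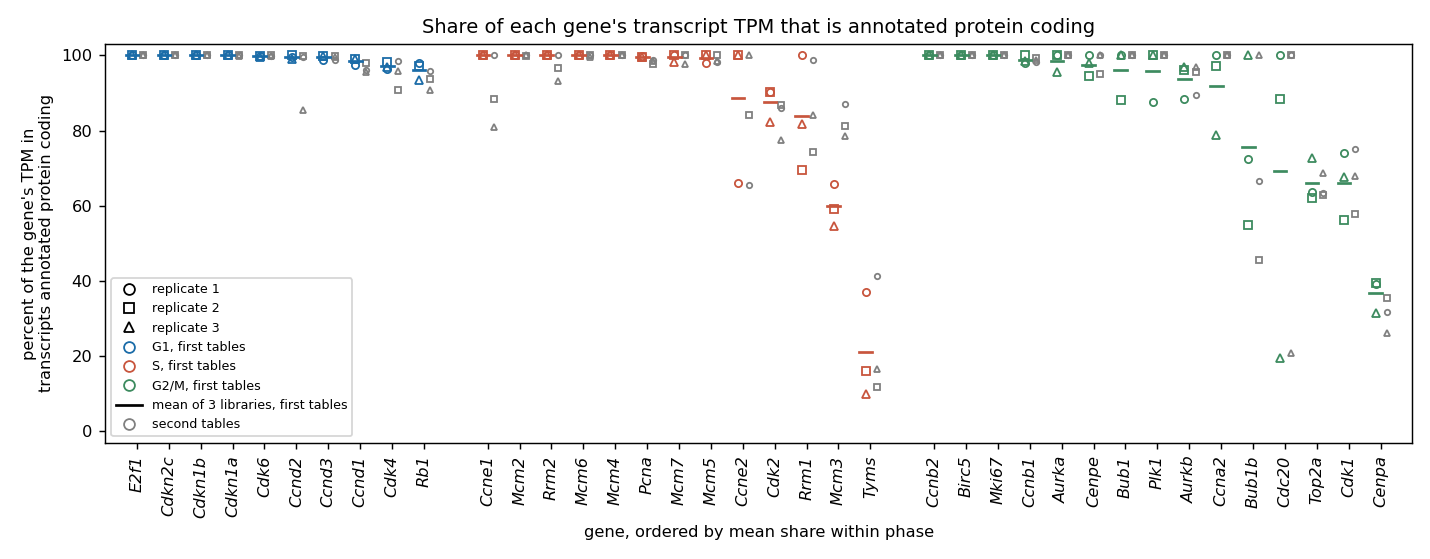
Percent of each gene's transcript TPM that lies in transcripts annotated protein coding, per library, with coloured symbols and mean bars for the first tables and grey symbols for the second. In the first tables G1 genes lie above 90%, and Tyms and Cenpa have the lowest means, while Cdc20 spans 19.4% to 100%.

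Genes of the same pathways outside the list were counted against the same level of 1 TPM. Above it stood 8764 of the 14374 protein-coding genes tested, and 44.5% of all genes, noncoding ones included. No difference from these shares was tested, and the lists were chosen with earlier results of these data known. Of 12 p53 pathway genes 12 stood above, with Gadd45b at 168 ± 38 TPM (SD, n = 3), Mdm2, the ligase that degrades p53, at 63.1 ± 15.8, Ccng1 at 49.2 ± 6.8 and Gadd45g lowest at 1.93 ± 0.40. By library, 5 of the 12 were highest in replicate 1, 6 in replicate 2 and 1 in replicate 3, against 60.4%, 23.6% and 16.0% of all genes. Mdm2 was among those highest in replicate 2, and Gadd45b among those highest in replicate 1. Of 7 other CDK inhibitors and pocket proteins 4 stood above and 3 below. Rbl1 and Rbl2, which encode p107 and p130, stood at 9.32 ± 3.25 and 8.16 ± 0.25 TPM, Cdkn2d at 4.65 ± 1.13, and Cdkn2a at 0.00, 0.05 and 0.07 TPM. Of 16 E2F, DP and DREAM or MuvB factors 11 stood above and 5 below, with Rbbp4 at 17.3 ± 2.6, the repressive E2f4 at 10.7 ± 0.9 and the MuvB subunit Lin37 at 9.20 ± 1.79 TPM. E2f7 was lowest at 0.0633 ± 0.0153.

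The pathway genes of replication were mostly above the level, and those of the spindle mostly below. Of 31 other replication origin and fork genes 25 stood above and 6 below, from the clamp loader subunits Rfc2 and Rfc1 at 23.5 ± 4.0 and 13.7 ± 0.8 TPM and Rpa1 at 11.1 ± 1.7 to Orc1, of the origin recognition complex, at 0.22 ± 0.026. Of 10 other nucleotide supply genes 7 stood above, 1 below and 2 were not placed. Samhd1, which breaks down deoxynucleotides, led them at 448, 317 and 328 TPM, above Dck at 31.3 ± 14.6 and Tk2 at 13.8 ± 0.7, and Dctd was lowest at 0.303 ± 0.11. Of 22 other kinetochore, spindle and cytokinesis genes 4 stood above, 17 below and 1 was not placed, from Tpx2 at 8.29, 3.23 and 3.15 TPM, Tacc3 at 2.91 ± 0.15 and Spc25 at 2.39 ± 0.19 to Aspm at 0.05 ± 0.03. In that list 13 of 22 genes were highest in replicate 2, against 23.6% of all genes, and of the replication genes 22 of 31 were highest in replicate 1, against 60.4%.

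Regulators of protein destruction and the other mitotic kinases were mixed. Of 21 anaphase promoting complex and SCF genes 18 stood above and 3 below, with Ube2s at 41.7 ± 3.3, Pttg1, which encodes securin, at 38.7 ± 13.1 and Anapc5 at 37.8 ± 5.0 TPM, and Fbxo5, an inhibitor of the complex, at 0.39 ± 0.056. Of 19 other mitotic kinases, cyclins and checkpoint genes 11 stood above, 5 below, 1 was not placed and 2 were listed at 0. Plk2, a stress-induced relative of Plk1, led at 177, 148 and 70.6 TPM, with the checkpoint gene Bub3 at 10.1 ± 0.4, Incenp at 9.56 ± 1.92 and Cdc25c at 0.0567 ± 0.025.

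**Figure D5:**
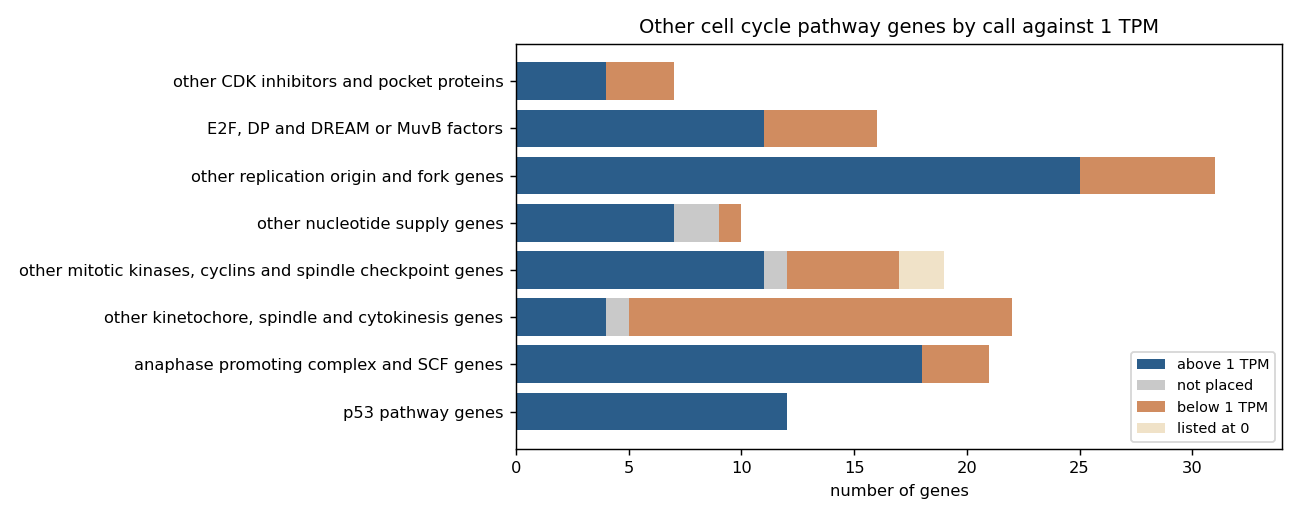
Number of genes in each of 8 pathway lists that stood above 1 TPM, could not be placed, stood below it or were listed at 0. All 12 p53 pathway genes are above, and 17 of 22 kinetochore, spindle and cytokinesis genes are below.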

How the data were processed

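Total RNA sequencing of cytosolic RNA gave 3 libraries of 1 group. Expected counts and TPM of genes and transcripts are as deposited, made from reads aligned to transcripts on mm10 with GENCODE M21, per the file headers and the text accompanying each library. The authors scaled TPM by effective length, per the file headers, so abundant short RNAs lower the TPM of messenger RNA. A second set of transcript tables, made directly from the reads, has its own estimated counts and TPM. Aligner, quantifier and strand setting: not given in the sources used here. Entries that are not genes held between 0.0772% and 0.378% of counts and were left out.

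Levels were tested in limma 3.58.1 (R 4.3.3): the mean of log2(TPM + 1) was set against its value at 1 TPM, with trend and robust options, over 20685 genes detected in any library, and p-values were adjusted by Benjamini-Hochberg (threshold 0.05). A pseudocount of 1 shrinks differences between low genes. The chi-square test used expected counts rounded to integers (2 df, summed count of 30 or more). TMM factors came from edgeR 4.0.16 and size factors from DESeq2 1.42.0. Python 3.11.15, pandas 2.3.3, numpy 2.4.6, scipy 1.17.1 and matplotlib 3.10.9 served for the rest. Both tests were tested on simulated data.

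Where a setting enters a result, it was recomputed with another pseudocount (0.1), a filter on mean count (10), another level (5 TPM), the second tables, TPM rescaled over coding genes, other library sizes, other summed counts (10 or 100), and each replicate left out. Members and lists were chosen with earlier results of these data known. Named were all 38 members, of each pathway list the 3 highest genes and the lowest above 0, and of each marker list the highest. Other markers and the overlapping genes were named after their values were seen. Promoter sequences are RefSeq's on GRCm38.p6.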

Additional observations from a re-analysis of the deposited data

How the results depend on the processing

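The order of the phases, G1 over S over G2/M, held in every library entered under each setting run, also with phase means in place of medians and with Ccna2 or E2f1 counted among the S genes. The G1 minus S median difference of 1.54 stayed within 1 SD, from 1.42 to 1.71 when a replicate was left out. G1 minus G2/M was 3.64 with a pseudocount of 0.1, 2.19 in the second tables and 3.37 after rescaling over coding genes, and ran from 2.62 to 2.86 with a replicate left out. S minus G2/M was 1.87, 0.80 and 1.66 in the same settings, and ran from 1.05 to 1.38. At a level of 5 TPM 10 members stood above (6 G1, 3 S and 1 G2/M gene), and after rescaling 10 G2/M genes stood above 1 TPM. With a replicate left out, 22 members, 10 G1, 9 S and 3 G2/M genes stood above in each case. Of all genes tested, 8950 of 19829 stood above without replicate 1, 8957 of 19794 without replicate 2 and 9017 of 19264 without replicate 3. Between 22 and 23 members then varied beyond sampling noise, against 51.3% to 53.9% of all genes tested. With TMM or DESeq2 library sizes 28 did, against 67% and 67.1% of all genes tested. The median member's coding share of 99.8% was 99.6% in the second tables. G2/M genes below 1 TPM numbered 6, 12 in the second tables and 2 after rescaling, against 10435 of 20685, 19242 of 28497 and 3662 of 14374 genes tested.

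Of the 38 members 12 kept their call and direction in all settings. On the log2(TPM + 1) scale relative to the level, the members whose estimate changed sign at a level of 5 TPM were Ccnd2 at -0.29, Cdkn2c at -0.75, Mcm2 at -0.63, Mcm4 at -0.43, Mcm5 at -0.55, Mcm7 at -1.01, Rrm1 at -0.15, Rrm2 at -1.58, Tyms at -1.39, Aurkb at -1.57, Top2a at -0.61 and Cenpa at -1.44, of which Ccnd2 and Rrm1 were then not placed. In the second tables Rrm2 at -0.43, Tyms at -0.32, Aurkb at -0.46 and Cenpa at -0.35 changed direction, and Cdkn2c, Mcm2 and Mcm7 were no longer placed. After rescaling the estimate changed sign for Ccne1 at 0.93, Ccne2 at 0.25, Ccna2 at 0.33, Ccnb1 at 0.91 and Aurka at 0.93. It also did for Bub1 at 0.22, Bub1b at 0.60, Birc5 at 0.69 and Cenpe at 1.07. Those then not placed included Ccne2 and Ccna2 (limma adjusted p = 0.075 and 0.067). A higher level and a smaller total over which TPM is scaled move all genes by construction; for the second tables the cause was not tested. No paired analysis was possible because all 3 libraries belong to 1 group. Depth limits Plk1, Ccnb2 and Cdc20 most, with a mean of 20.3 to 24.3 counts.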
